A study of Mus musculus with 22 samples.

Results

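The nuclear-encoded genes of oxidative phosphorylation were followed in ribosome-bound and unbound RNA of the CA1 field of the mouse hippocampus. Members were all rows whose symbol begins like the subunits of the 5 respiratory complexes (the Nduf, Sdh, Uqcr, Cox4 to Cox8 and Atp5 families), which took 87 of 29848 genes. They comprised 36 genes of complex I, 4 of complex II, 9 of complex III, 19 of complex IV and 15 of complex V. The other 4 match by symbol without being classed here as subunits. These are Atp5s and Atp5sl, both related to the ATP synthase coupling factor by name, Cox4nb, a neighbour gene of Cox4i1, and Cox7a2l, a factor that joins complexes into supercomplexes. Ndufa4 was counted with complex IV, where its protein is now placed, together with its paralogue Ndufa4l2.

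Oxidative phosphorylation makes most of the ATP that neurons spend on ion pumping and synaptic transmission. Complex I (NADH dehydrogenase) and complex II (succinate dehydrogenase) pass electrons to ubiquinone, complex III to cytochrome c, and complex IV (cytochrome c oxidase) to oxygen, while complex V (ATP synthase) uses the resulting proton gradient. Most subunits are encoded in the nucleus, translated in the cytosol and imported into mitochondria, which in pyramidal neurons lie in cell bodies, dendrites and axons.

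All mice were C57BL/6 and carried both Camk2a-tTA and tetO-EGFP-L10a, so that a transactivator under the Camk2a promoter, which is active in excitatory forebrain neurons, drives a GFP-tagged ribosomal protein. Ribosomes were pulled down with a GFP antibody from dissected dendrites or cell bodies (soma) of fear conditioned or home cage mice. The 8 immunoprecipitates were 2 fear conditioned dendrite, 2 home cage dendrite, 2 fear conditioned soma and 2 home cage soma libraries. The 3 supernatants, which hold the RNA left unbound, were fear conditioned dendrite 2, home cage dendrite 2 and fear conditioned soma 2. All 11 libraries were sequenced in both a paired-end and a single-end format, and the 2 runs of a library count as 1 replicate. Values are FPKM, fragments per kilobase of transcript scaled to the mapped total, over the part of the transcript without most of the 3′ UTR. They are from the paired-end run unless stated. Whether replicate libraries were made from different mice is not stated, so the p-values may reflect technical spread alone.

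Depth, estimated from the spacing of low FPKM values, was 5.7 to 35.3 M fragments in paired-end and 0.515 to 10.6 M reads in single-end runs. At the median member length of 647 bases, 1 fragment was worth 0.0438 to 0.271 FPKM in the paired-end runs. The members' models were short beside the median of 1829 bases over all genes detected. In the paired-end run the fear conditioned dendrite immunoprecipitate 1 was the immunoprecipitate closest to a supernatant. Over the members its log2 values correlated at 0.875 (Pearson's r) with those of home cage dendrite supernatant 2. Its r with its own replicate was 0.52, the highest of the replicate pairs. In the single-end run the same pairs had r values of 0.493 and 0.31. Fear conditioned soma immunoprecipitate 2 had 0.567 with that supernatant there, so the single-end run did not single out dendrite library 1. The members' median differences in the comparisons that use fear conditioned dendrite immunoprecipitate 1 are also given without it.

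Of the 87 members, 23 to 74 were detected per immunoprecipitate and 70 to 76 per supernatant, detection being 0.01 FPKM or more. The fear conditioned dendrite libraries 1 and 2 had 74 and 49 members, against 31 and 38 in the home cage dendrite libraries. In soma immunoprecipitates the counts were 55 and 73 after fear conditioning, against 28 and 23 in the home cage. In both locations each fear conditioned immunoprecipitate thus held more members than each home cage immunoprecipitate. Counts over all genes differed in the same direction. The fear conditioned dendrite libraries had 11652 and 5820 genes detected, against 3198 and 4443 in the home cage dendrite libraries. Fear conditioned soma libraries had 8877 and 8712, against 4753 and 3057 in home cage soma. The part that library complexity has in the members' counts was not tested. Members were detected more often than genes at large: 8 members (9.195%) were found in all 8 immunoprecipitates, against 2.556% of all genes, and 65 (74.71%) in all 3 supernatants, against 25.62% of all genes.

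**Figure D1:**
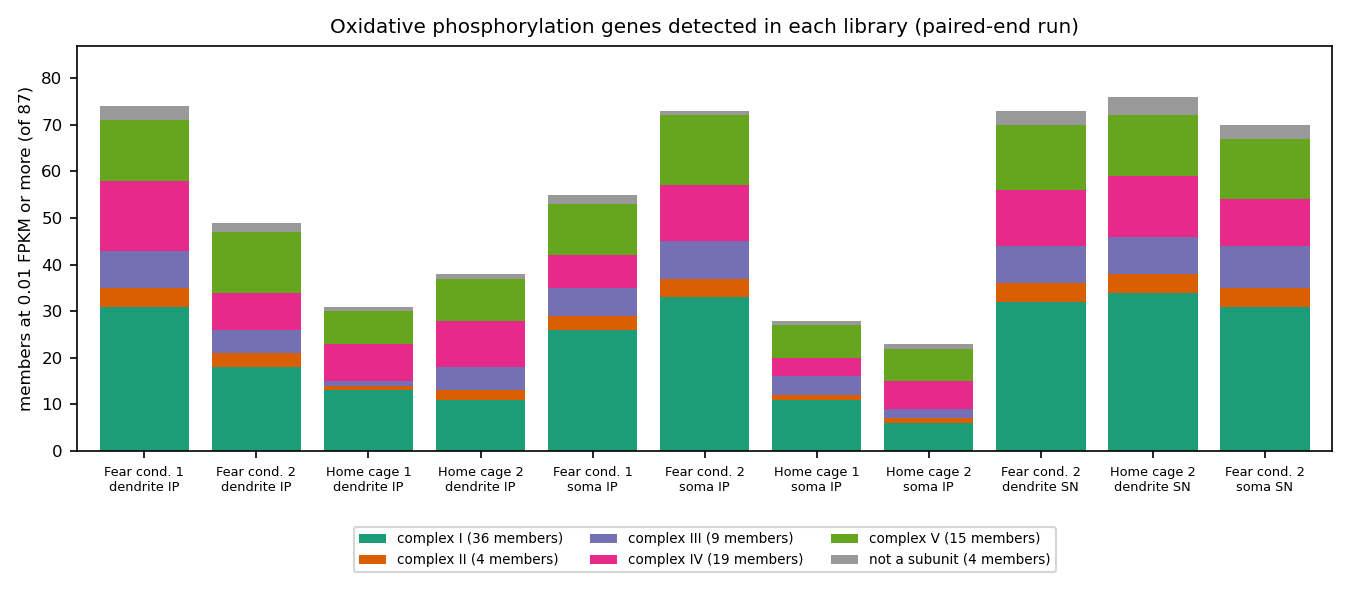
Number of members detected (at least 0.01 FPKM) in each of the 11 libraries of the paired-end run, stacked by complex; IP is immunoprecipitate and SN supernatant. The 3 supernatants hold 70 to 76 members each, while the home cage immunoprecipitates hold 23 to 38.

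The members detected in every immunoprecipitate included Atp5a1, Atp5b and Atp5o of complex V, Cox6a1 and Cox8a of complex IV, Ndufv1 of complex I, and Uqcrc2 of complex III. Only Atp5a1, Atp5b, Atp5o and Cox8a were also detected in all 8 in the single-end run. At the other end, Cox7b2, Cox8b, Cox8c and Ndufa4l2 were listed at 0 in all 11 paired-end libraries. In single-end supernatants Cox7b2 and Cox8b were detected in 1 library each, at 0.25 and 2.36 FPKM, and Ndufa4l2 in 2, at 0.834 and 0.282 FPKM. Cox7b2, Cox8b and Cox8c are isoforms of complex IV subunits that are known from testis (Cox7b2, Cox8c) or from heart and skeletal muscle (Cox8b), and Ndufa4l2 is a hypoxia-induced paralogue of Ndufa4.

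Complex I had a median of 15.5 of its 36 members detected per immunoprecipitate, and 31 to 34 per supernatant. Some of its members had a single high value among low ones. Ndufc1, a small accessory subunit of the membrane arm (chromosome 3, 51209401 to 51212877, mm9, the span of its coding model), had 89.5 FPKM in home cage dendrite immunoprecipitate 1, 0 to 0.226 FPKM in the other 3 dendrite immunoprecipitates and 0 to 1.65 FPKM in soma immunoprecipitates. Ndufc2, its neighbour in the membrane arm, had 97.4 and 7.55 FPKM in fear conditioned dendrite immunoprecipitates 1 and 2, and was listed at 0 in both home cage dendrite immunoprecipitates. Its supernatant levels were 1.29 and 10.2 FPKM in dendrite and 3.41 FPKM in soma. Ndufb4, an accessory subunit of the same arm, had 97.2 FPKM in fear conditioned soma immunoprecipitate 2, against at most 15.9 FPKM in any other library. In the paired-end run these 3 genes had their highest levels in 3 different immunoprecipitates, while Ndufa2, Ndufa3 and Ndufs1 shared their highest library with Ndufc1. The single-end run differed in both respects. Ndufc1 and Ndufc2 were both highest in home cage dendrite 1 there, at 61.3 and 92.5 FPKM, and Ndufb4 in fear conditioned dendrite 1, at 70.6 FPKM. Single-end Ndufa2, Ndufa3 and Ndufs1 had 2.54, 0 and 0.377 FPKM in home cage dendrite 1 and were highest in fear conditioned soma 2.

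The catalytic core of complex I includes the flavoprotein subunits Ndufv1 and Ndufv2 and the iron-sulfur and quinone-site subunits Ndufs1, Ndufs3, Ndufs7 and Ndufs8. Between 2 and 6 of these 6 genes were detected per immunoprecipitate. Their summed level was 1.08 to 18.4 FPKM in immunoprecipitates and 2.18 to 4.63 FPKM in supernatants. Single genes again made up much of the higher sums: Ndufs1 had 18.1 FPKM in home cage dendrite immunoprecipitate 1, where Ndufs3, Ndufs7 and Ndufs8 were listed at 0. Ndufs3 had 14.2 FPKM in home cage soma immunoprecipitate 2, where Ndufs1 was listed at 0. The single-end runs had Ndufs1 at 0.377 FPKM in that dendrite library and Ndufs3 at 0.57 FPKM in that soma library. A gene's supernatant mean lay between 0.314 and 1.06 FPKM for all 6. Within a supernatant the genes were further apart: fear conditioned dendrite supernatant 2 had Ndufv1 at 0.0749 and Ndufs3 at 1.07 FPKM. Its single-end run had Ndufv1 at 7.53 FPKM and Ndufs3 at 0.

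Complex II consists of the flavoprotein Sdha, the iron-sulfur protein Sdhb and the membrane anchors Sdhc and Sdhd. Sdhc (chromosome 1, 173059734 to 173080734) had 25.3 and 84.7 FPKM in fear conditioned dendrite immunoprecipitates, against 0 and 0.201 FPKM in home cage ones. In soma it had 12.6 and 10.3 FPKM after fear conditioning, against 0.0206 and 309 FPKM in the home cage. The last value, in home cage soma immunoprecipitate 2, was 86.36% of the summed FPKM of all members in that library, in which Sdha, Sdhb and Sdhd were listed at 0. The single-end run of the same library had Sdhc at 0.794 FPKM. Sdha ranged from 0 to 10.1 FPKM over the 8 immunoprecipitates, and from 0.765 to 1.72 FPKM over the supernatants. Sdhb had at most 1.89 FPKM in any immunoprecipitate, and 5.74 and 1.38 FPKM in the dendrite and 8.16 FPKM in the soma supernatant. Sdhd stayed at or under 1.37 FPKM in every library of the paired-end run. Its single-end levels reached 12.2 FPKM in fear conditioned dendrite immunoprecipitate 1 and 14.9 FPKM in fear conditioned soma immunoprecipitate 2.

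Complex III contains the core proteins Uqcrc1 and Uqcrc2, the Rieske iron-sulfur protein Uqcrfs1 and several small subunits. Uqcrc2 was detected in all 11 libraries, at 1.21 to 2.61 FPKM in dendrite immunoprecipitates, 0.0446 to 13.6 FPKM in soma immunoprecipitates and 1.32 to 3.88 FPKM in supernatants. Uqcrfs1 had 1.48 and 21.6 FPKM in fear conditioned dendrite immunoprecipitates and was listed at 0 in both home cage ones. Uqcrh, the hinge protein that binds cytochrome c1, had 7.1 and 31.4 FPKM after fear conditioning, against 0 and 0.473 FPKM in home cage dendrite. Neither gene overlapped between behaviours in dendrite, as was so in this direction for 24.5% of all tested genes. Uqcrh overlapped in the single-end run, with 3.97 and 0 FPKM after fear conditioning, against 0 and 22.4 FPKM in the home cage. The small subunit Uqcr10 had its highest level, 18.5 FPKM, in home cage soma immunoprecipitate 2, whose single-end run listed it at 0. The row named Uqcr overlaps Uqcr11 in the deposited annotation, so their reads cannot be told apart; Uqcr was under 0.01 FPKM in all but the soma supernatant.

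**Figure D2:**
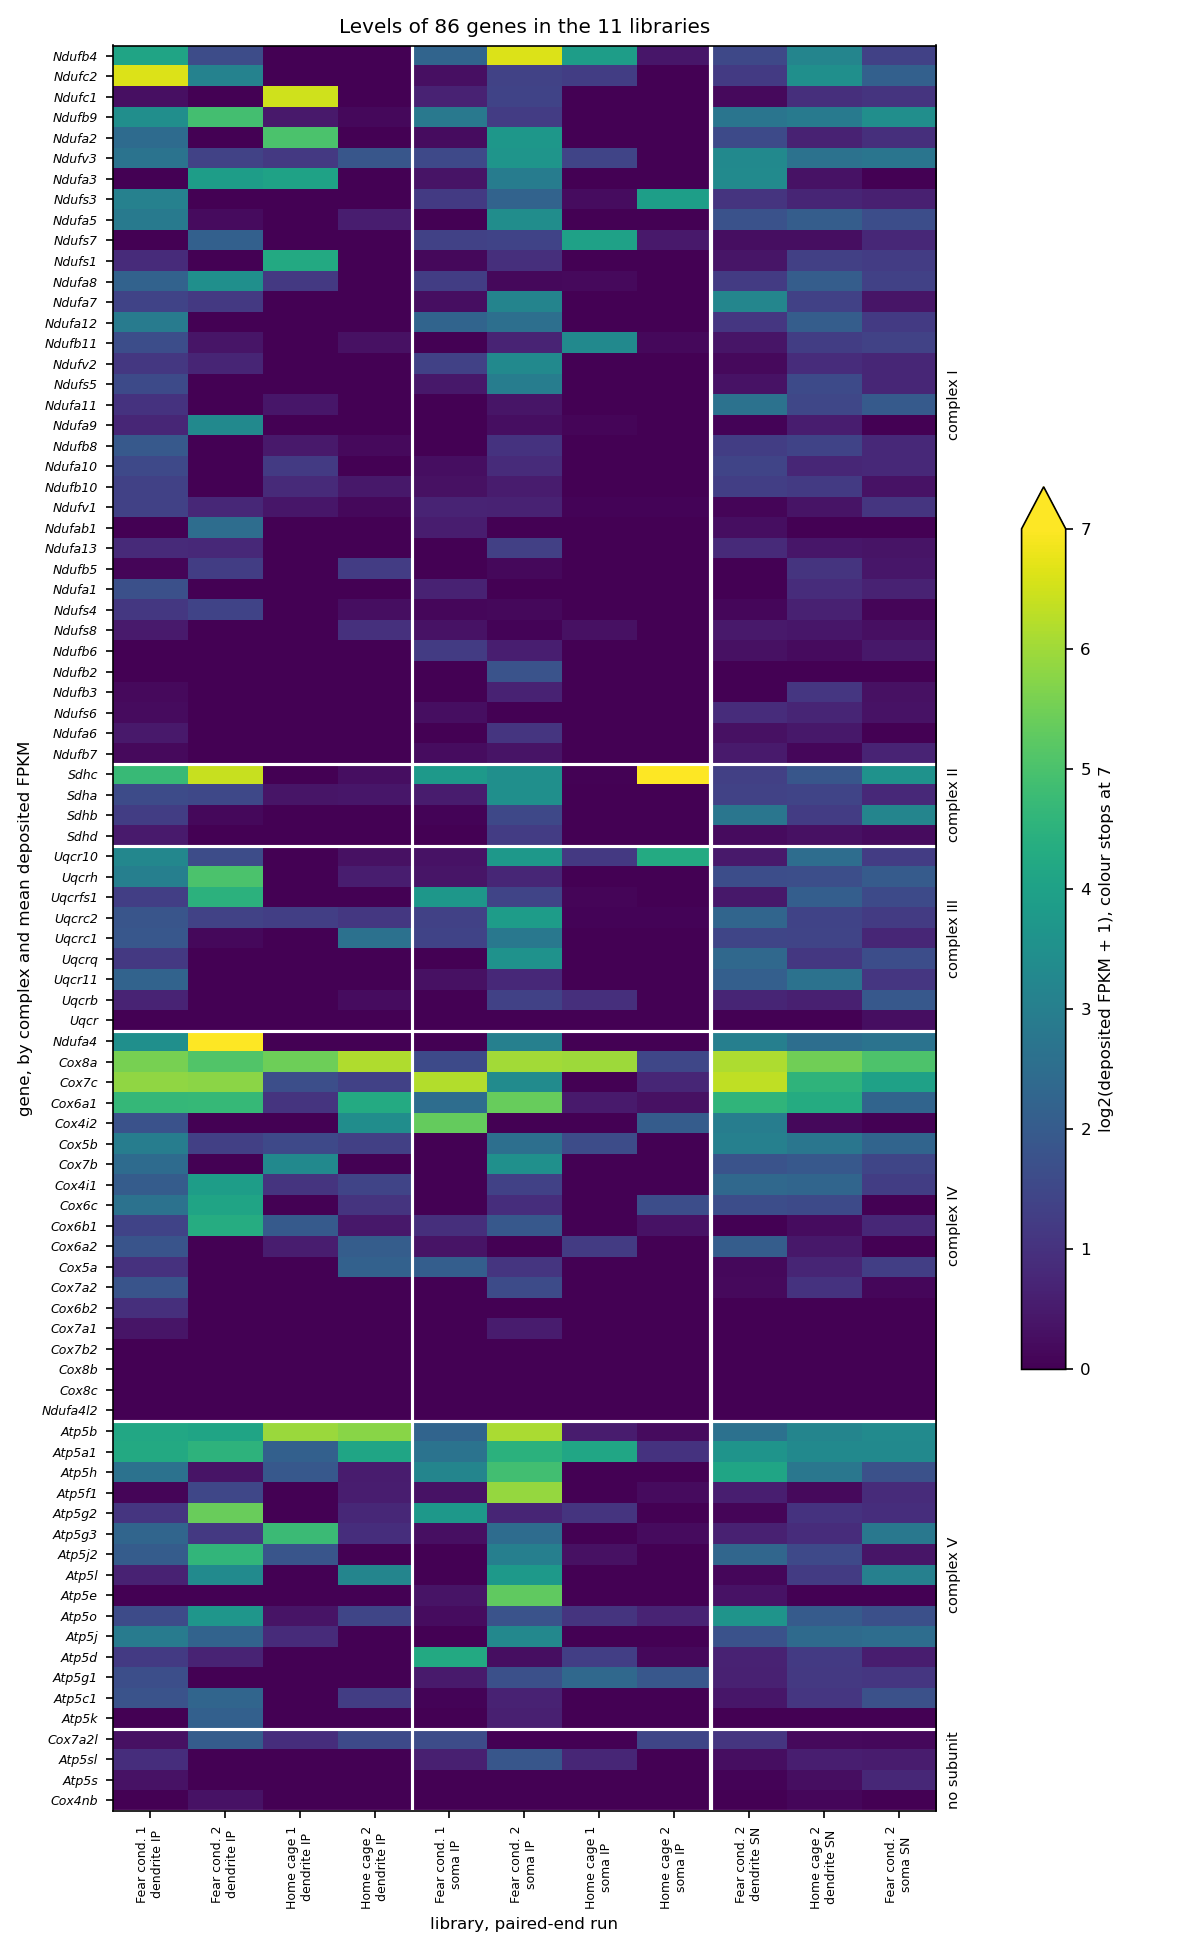
Level of 86 of the 87 members, as log2(deposited FPKM + 1), in the 11 libraries of the paired-end run, with rows grouped by complex and ordered by mean level. Supernatant columns resemble each other, whereas most immunoprecipitate columns hold a few bright members that are dark in the other libraries, such as Ndufa4 at 1966 FPKM in fear conditioned dendrite immunoprecipitate 2.

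Complex IV held the highest levels in all 3 supernatants and the highest single value of any library. Cox8a, a small subunit that stabilises the enzyme (chromosome 19, 7289681 to 7292106), had 45.9 and 33.6 FPKM in fear conditioned dendrite immunoprecipitates, against 42.9 and 70.2 FPKM in home cage dendrite. In soma it had 2.00 and 64.1 FPKM after fear conditioning, against 61.9 and 1.82 FPKM in the home cage. Its supernatant levels were 69.6 and 44.03 FPKM in dendrite and 31.9 FPKM in soma. Cox8a was among the 10 highest members in 10 of 11 libraries in the paired-end run and in 10 of 11 in the single-end run. The 4 dendrite libraries were thus within about the range of the supernatants, and the soma libraries were split into a high and a low pair, each with 1 library of either behaviour. Single-end levels of Cox8a in soma were 13.5 and 76.7 FPKM after fear conditioning, against 1.26 and 2.04 FPKM in the home cage, without overlap. Cox7c, another small subunit, had 56.4 and 54.5 FPKM in fear conditioned dendrite immunoprecipitates, against 2.19 and 1.58 FPKM in home cage ones, and 72.8 and 9.39 FPKM in fear conditioned soma, against 0 and 0.694 FPKM in home cage soma. Cox6a1, the subunit isoform found outside muscle, had 1.06 to 25.03 FPKM in dendrite immunoprecipitates, 0.239 to 40.3 FPKM in soma immunoprecipitates and 3.79 to 22.9 FPKM in supernatants.

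Ndufa4 (chromosome 6, 11850373 to 11857446) had the highest value of any member, 1966 FPKM in fear conditioned dendrite immunoprecipitate 2, which was 78.5% of the members' sum there. The other fear conditioned dendrite immunoprecipitate had 10.2 FPKM, and both home cage dendrite immunoprecipitates were listed at 0. In soma only fear conditioned immunoprecipitate 2 held it, at 7.23 FPKM. Paired-end supernatants had 7.15 and 4.73 FPKM in dendrite and 5.32 FPKM in soma. Single-end supernatants were less even, at 62.7 and 34.8 FPKM in dendrite and 16.8 FPKM in soma. The single-end run put the 1966 FPKM library at 32.1 FPKM and home cage dendrite immunoprecipitate 1 at 7.09 FPKM. In that run fear conditioned soma immunoprecipitates 1 and 2 had 1.52 and 42.95 FPKM, and both home cage soma ones were listed at 0. The extreme value was therefore seen in 1 run of 1 library.

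Isoform pairs of complex IV were compared within libraries. Cox4i1, the general isoform of subunit 4, was detected in all 4 dendrite immunoprecipitates at 1.07 to 13.8 FPKM and in 1 of 4 soma immunoprecipitates, at 1.54 FPKM. Cox4i2, the isoform known from lung and from low oxygen, was listed at 0 in 4 of 8 immunoprecipitates and had 39.5 FPKM in fear conditioned soma 1. It was above Cox4i1 in fear conditioned soma 1, in home cage soma 2 and in home cage dendrite 2, and below it in both fear conditioned dendrite libraries, home cage dendrite 1 and fear conditioned soma 2. Both were listed at 0 in home cage soma 1. Cox6a2, the muscle isoform, had at most 3.22 FPKM. Cox6b1 had 0 to 19.0 FPKM over the 11 libraries, while the testis isoform Cox6b2 was detected in fear conditioned dendrite immunoprecipitate 1 alone, at 0.912 FPKM. Cox7a1, a muscle isoform, had at most 0.459 FPKM and Cox7a2, the general one, at most 2.55 FPKM. The related Cox7a2l was detected in 6 of 8 immunoprecipitates at up to 3.09 FPKM. These maxima hold for the paired-end run alone. In the single-end run Cox7a2 had 68.8 FPKM in fear conditioned dendrite 1 and Cox7a2l 86.9 FPKM in fear conditioned dendrite 2. Cox6a2 had 10.2 FPKM there in home cage dendrite 1, while Cox7a1 was listed at 0 throughout.

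Complex V includes the catalytic head with the alternating subunits Atp5a1 (alpha) and Atp5b (beta), a peripheral stalk, and a ring of c subunits that turns in the membrane. Atp5a1 was among the 10 highest members in all 11 paired-end libraries, the only member of which this was so, but in 5 of 11 in the single-end run. It had 18.2 and 22.0 FPKM in fear conditioned dendrite immunoprecipitates, against 3.39 and 16.5 FPKM in home cage ones, and 5.29 and 21.3 FPKM in fear conditioned soma, against 16.7 and 1.03 FPKM in home cage soma. Supernatants had 11.4 and 8.94 FPKM in dendrite and 9.04 FPKM in soma. Atp5b (chromosome 10, 127520363 to 127527373) had 17.3 and 15.9 FPKM in fear conditioned dendrite immunoprecipitates, against 61 and 53.3 FPKM in home cage ones. In soma the order was the other way, with 3.77 and 68.6 FPKM after fear conditioning, against 0.459 and 0.161 FPKM in the home cage. The opposite order was seen in the paired-end run alone: single-end levels in dendrite were 33.03 and 35.04 FPKM after fear conditioning, against 7.38 and 26.5 FPKM in the home cage. The supernatants had 5.11 and 8.11 FPKM in dendrite and 9.25 FPKM in soma. Alpha and beta, which are present in equal number in the enzyme, had ratios of alpha to beta of 0.977 to 2.24 in the supernatants, while home cage soma 1 had 36.4 times as much alpha as beta and home cage dendrite 1 had 18.0 times as much beta as alpha. In the single-end run of home cage dendrite 1, beta had 7.38 FPKM and alpha 3.79 FPKM.

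The peripheral stalk genes Atp5f1, Atp5h, Atp5j and Atp5o summed to 0.781 to 97.6 FPKM in immunoprecipitates and 10 to 30.5 FPKM in supernatants. Atp5h had 8.02 and 28.5 FPKM in fear conditioned soma immunoprecipitates and was listed at 0 in both home cage soma ones. The c ring is encoded by Atp5g1, Atp5g2 and Atp5g3, whose mature proteins are identical. A different gene led in different libraries: Atp5g2 had 40.9 FPKM in fear conditioned dendrite 2 and 12.3 FPKM in fear conditioned soma 1, Atp5g3 had 26.4 FPKM in home cage dendrite 1, and Atp5g1 led in both home cage soma libraries at 4.11 and 2.71 FPKM. The 3 genes together had 1.63 to 42.1 FPKM in immunoprecipitates and 1.18 to 7.99 FPKM in supernatants.

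Agreement between the runs of a library was measured over the members, which are not independent replicates and share the library. The r between runs on log2(FPKM + 1) ranged from 0.0596 to 0.52 in the 8 immunoprecipitates and 0.52 to 0.801 in the 3 supernatants. Of the 10 highest members of a library, 2 to 6 were shared between its runs in immunoprecipitates and 1 to 8 in supernatants. The highest member was the same in both runs only in the soma supernatant, where it was Cox8a. Atp5k, a small membrane subunit of complex V, reached 827.9 FPKM in the single-end run of fear conditioned soma immunoprecipitate 2, against 0.529 FPKM in its paired-end run. Between libraries of the paired-end table r was 0.15 to 0.52 within the 4 immunoprecipitate groups, with a median of 0.315, and −0.0387 to 0.538 between groups, with a median of 0.32. The median of replicate pairs was thus not above that of pairs from different groups. Supernatants had r values of 0.633 to 0.785.

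**Figure D3:**
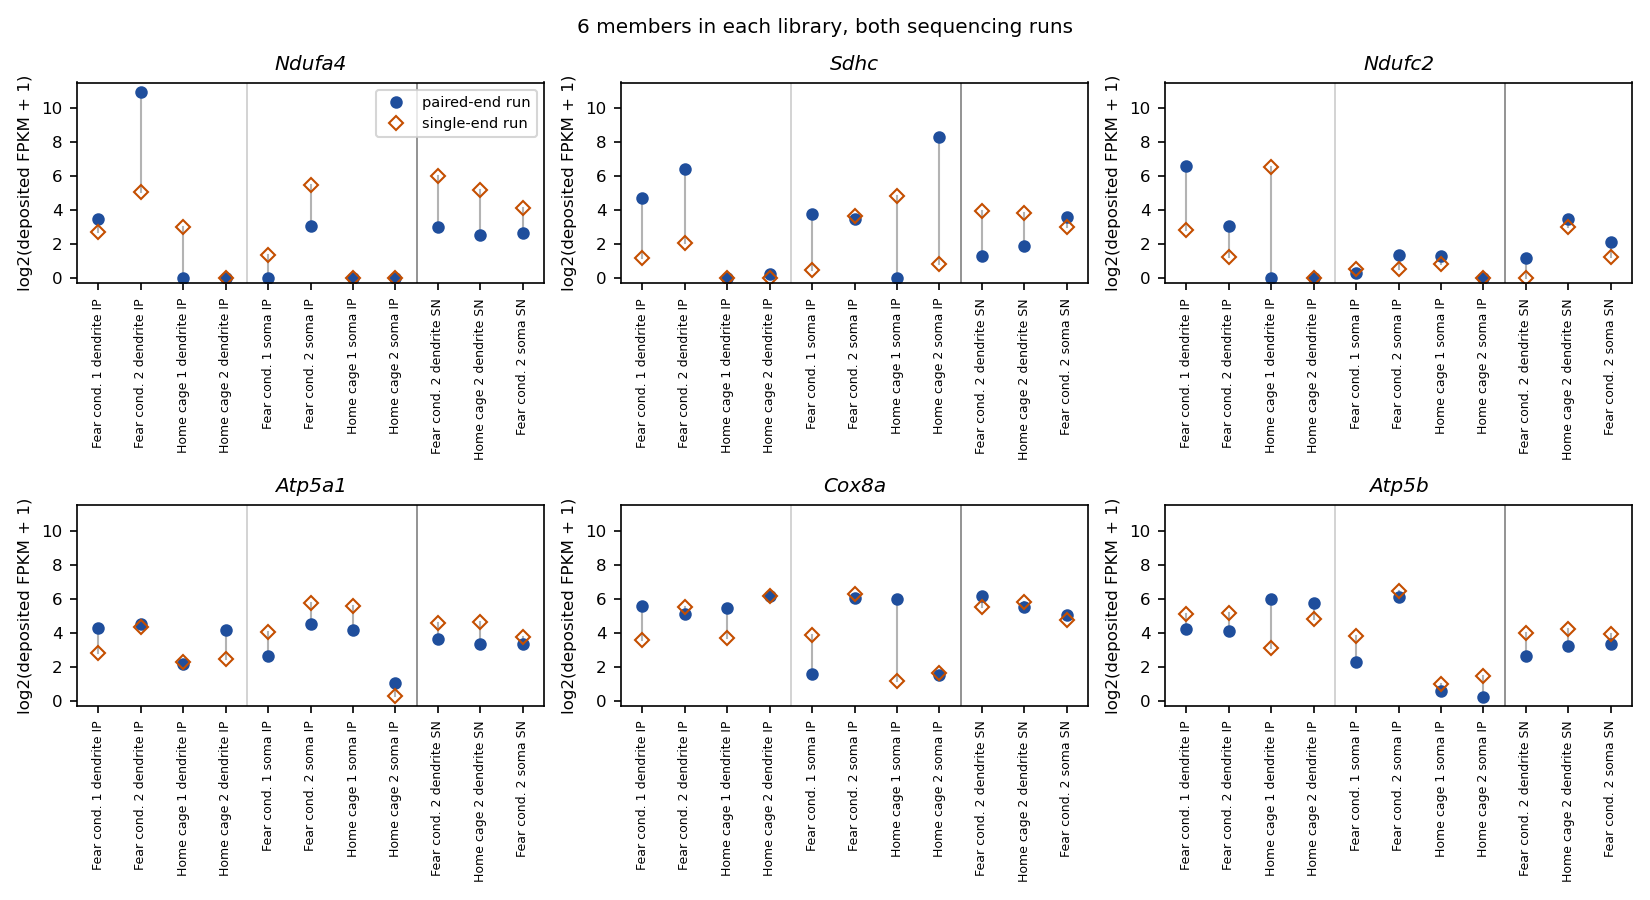
Levels of 6 members in each of the 11 libraries, as log2(deposited FPKM + 1), in the paired-end run (filled circles) and the single-end run (open diamonds), joined by a line. Cox8a in home cage dendrite immunoprecipitate 2 nearly coincides (70.2 and 69.1 FPKM), whereas Ndufa4 in fear conditioned dendrite immunoprecipitate 2 (1966 and 32.1 FPKM) and Sdhc in home cage soma immunoprecipitate 2 (309 and 0.794 FPKM) are far apart.

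The share of a member's summed immunoprecipitate FPKM that came from its highest library had a median of 61.8% over the 83 members above 0 in any, and was over 50% for 54 of them. All 15213 genes above 0 in any immunoprecipitate had a median of 74.7%. For Ndufa4 the share was 99.12%, for Ndufc1 97.33%, for Sdhc 69.93%, for Cox8a 21.77% and for Atp5a1 21.08%.

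Dendrite was compared with soma to ask whether ribosome-bound mRNAs of these complexes differ between the cell compartments. No member passed: 0 of 46 tested members had an adjusted p under 0.05 in limma's moderated test, adjusted over all 2928 genes tested, and 0% of those genes did; the lowest member p was 0.65 after adjustment. At an unadjusted p under 0.05, 0 members were higher, against 1.88% of all genes, and 1 was lower, Atp5g1, against 2.87%, among 139 genes in all. Levels here are scaled FPKM, the deposited values divided by a factor per library, and differences are on the log2(scaled FPKM + 1) scale. The 46 members had a median difference of 0.26, with 26 higher in dendrite (56.5%) and 20 lower, while 42.6% of all genes were higher and their median was −0.30. With values as deposited, not scaled, the median of all genes changed to 0.12 and that of the members to 0.56. In the single-end run the members' median was −0.29 and that of all genes −0.50, so the direction turned there. Without the fear conditioned dendrite library 1 the members' median was 0.43.

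By complex the medians were 0.51 for 15 members of complex I, −0.95 for 2 of complex II, −0.03 for 5 of complex III, 0.69 for 10 of complex IV and 0.12 for 13 of complex V. Of the complex IV members, 9 of 10 had a positive difference. Cox4i1 was the only member whose 4 dendrite libraries all lay above its 4 soma libraries, 2.17% of members against 1.71% of all genes; 0 members lay below in this way, against 1.74%. It had a scaled FPKM of 2.81 ± 3.15 in dendrite and 0.224 ± 0.447 in soma (SD, n = 4 each), a log2 difference of 1.41 (SE 0.77, limma adjusted p = 0.65). Its dendrite libraries ran from 0.986 to 7.53 and its soma libraries from 0 to 0.894, so the groups nearly met. They overlapped in the deposited single-end values, at 0 to 18.0 FPKM in dendrite and 0 to 4.02 FPKM in soma. Atp5b had 29.1 ± 24.8 in dendrite and 11.04 ± 19.3 in soma, a log2 difference of 2.22 (SE 1.12) with overlapping groups. Atp5g1 had 0.242 ± 0.484 in dendrite and 4.67 ± 4.66 in soma, a log2 difference of −1.78 (SE 0.76, limma adjusted p = 0.65). As deposited, the sum of 8 astrocyte markers was 134 to 427 FPKM in dendrite and 1.22 to 81.3 FPKM in soma immunoprecipitates. Of the 8, 6 to 8 were above 0 in dendrite and 4 to 8 in soma. Single astrocyte markers did overlap. Aldoc had 63.6 FPKM in fear conditioned soma 1, against 24.6 to 73.3 FPKM in dendrite. Slc1a3 had 7.47 FPKM in home cage soma 1, against 0.219 FPKM in home cage dendrite 1. Gja1 was at 0 in home cage dendrite 1 and in both home cage soma libraries. Oligodendrocyte sums overlapped, at 5.52 to 131 FPKM in dendrite and 0.888 to 92.4 FPKM in soma. Microglial sums did too, at 0.369 to 11.5 FPKM and 0.0167 to 5.26 FPKM. In dissected tissue a cell type that is rarer cannot be told apart from less RNA per cell, and the part of astrocyte RNA in the members' values was not tested. CA1 and excitatory neuron markers summed to 64.2 to 729 FPKM in dendrite and 3.71 to 226 FPKM in soma, and in dendrite nearly all of it was Camk2a; the CA1 marker Wfs1 had at most 0.686 FPKM in dendrite and at most 10 FPKM in soma.

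The fear conditioning comparison in dendrite asks which ribosome-bound mRNAs change after training. No member passed: 0 of 46 had a limma adjusted p under 0.05, as had 0% of the 2928 genes. An unadjusted p under 0.05 was found for 96 genes, with 5 members higher, against 1.95% of all genes, and 0 lower, against 1.33%. Their median log2 difference was 0.57, with 29 positive and 16 negative, against 0.08 over all genes, of which 56.7% were positive. In 14 members (30.4%) both fear conditioned libraries lay above both home cage libraries, and in 3 (6.52%) below them, against 24.5% and 8.61% of all genes. The 5 members at an unadjusted p under 0.05 were Ndufa4, Ndufc2, Uqcrh, Ndufb9 and Cox7c, each higher after fear conditioning and from complexes I, III and IV; the limma adjusted p was 0.944 for each.

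Cox7c had scaled FPKM of 24.4 and 29.6 in fear conditioned dendrite libraries, against 2.02 and 1.31 in home cage ones, a log2 difference of 3.40 (SE 1.55). Both fear conditioned values were alike and far above both home cage values. The deposited single-end values were 4.99 and 17.3 FPKM after fear conditioning, against 0 and 2.90 FPKM in the home cage. After fear conditioning Ndufa4 had 4.41 and 1069, both home cage libraries being listed at 0, which gives 6.25 (SE 2.00) on a scale where the pseudocount sets the distance to 0. Without fear conditioned dendrite library 2 this difference was 2.35, and without library 1 it was 9.91. Ndufc2 had 42.2 and 4.10 and was likewise listed at 0 in the home cage, a difference of 3.89 (SE 1.31). In the single-end run its difference turned to −1.83, since home cage dendrite 1 had 92.5 FPKM there and the fear conditioned libraries 6.17 and 1.39 FPKM. Ndufc2 was not tested without fear conditioned dendrite library 1, because its mean was then under the expression minimum.

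Ndufb9, an accessory subunit of complex I, had 4.36 and 15.8 in fear conditioned dendrite libraries, against 0.351 and 0.0995 in home cage ones (log2 difference 2.96, SE 1.18). Uqcrh had 3.08 and 17.1, against 0 and 0.393 (log2 difference 2.86, SE 1.10). In the other direction, Atp5b had 7.49 and 8.64 in fear conditioned libraries, against 56.3 and 44.2 in home cage ones, with no overlap and a log2 difference of −2.49 (SE 1.58, limma adjusted p = 0.944). Cox8a had 19.9 and 18.3, against 39.5 and 58.2. In the deposited single-end values this order was not seen: Atp5b had 33.03 and 35.04 FPKM after fear conditioning, above 7.38 and 26.5 FPKM in the home cage. Single-end Cox8a had 10.61 and 43.99 FPKM after fear conditioning, against 11.9 and 69.1 FPKM in the home cage, which overlap. The members' median without the fear conditioned dendrite library 1 was 0.70, and without library 2 it was 0.31. Oligodendrocyte markers, 6 in all, summed to 131 and 34.3 deposited FPKM in fear conditioned dendrite, with 6 and 4 above 0, against 5.52 and 14.3 FPKM in home cage dendrite, with 3 and 6 above 0. Mog was at 0 in fear conditioned dendrite 2 and home cage dendrite 1, and the part of these markers in the members' values was not tested.

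In soma, 0 of 46 members had a limma adjusted p under 0.05 and 0% of the 2928 genes did. Of 217 genes at an unadjusted p under 0.05, 1 was a member that was higher, against 5.94% of all genes, and 1 a member that was lower, against 1.47%. Differences were positive for 32 members and negative for 14, with a median log2 difference of 0.91, against 0.43 over all genes, of which 61.9% were positive. Both fear conditioned libraries lay above both home cage libraries for 16 members (34.8%) and below for 4 (8.7%), against 33.4% and 7.99% of all genes. These shares were close to the background. Without fear conditioned soma library 2 the members' median was 0.00 and that of all genes 0.04. Without home cage soma library 1 it was 1.36. Sums of neuronal markers also differed in soma as deposited: 6 excitatory neuron markers summed to 61 and 226 FPKM after fear conditioning, with all 6 above 0 in both, against 19.5 and 3.71 FPKM in the home cage, with 6 and 3 above 0. Neurod2 and Fibcd1 did not follow the sum. Neurod2 had 0.456 and 0.358 FPKM after fear conditioning, against 1.13 and 0 FPKM in the home cage. Fibcd1 had 0.0596 and 0.133 FPKM, against 1.47 and 0 FPKM. The sum of 6 interneuron markers was 5.67 and 12.1 FPKM after fear conditioning, with 4 and 3 above 0, and all 6 were at 0 in both home cage soma libraries. Their part in the members' values was not tested.

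Atp5h had scaled FPKM of 6.05 and 16.6 in fear conditioned soma libraries and was listed at 0 in both home cage ones, a difference of 3.48 (SE 1.203, limma adjusted p = 0.568). Its deposited single-end levels were 13.04 and 50.75 FPKM, and again 0 in both home cage libraries, so that for Atp5h both runs gave the same picture. Atp5g1 had 0.326 and 1.32 in fear conditioned soma, against 6.88 and 10.2 in home cage soma, a log2 difference of −2.42 (SE 1.07, limma adjusted p = 0.568). Deposited single-end levels were 10.49 and 3.22 FPKM, against 3.24 and 1.31 FPKM, so the groups overlapped there. Without fear conditioned soma library 1, 1 member passed. This was Atp5e, the epsilon subunit of ATP synthase, with a difference of 4.50 (SE 0.49, limma adjusted p = 0.0229), where 5% of all genes tested passed; that fit compares the lone library 2, at a scaled FPKM of 22.4 under the scaling of all 8 immunoprecipitates, with home cage libraries at 0 and assumes that it varies like the other groups.

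The difference of the fear conditioning effect between dendrite and soma was tested directly. No member passed (0 of 46, limma, and 0% of 2928 genes), with 102 genes at an unadjusted p under 0.05, among them 1 positive member, against 0.956% of all genes, and 1 negative member, against 2.53%. The members' median was 0.09, against −0.57 over all genes, and 25 members (54.3%) had a positive difference, against 42.3% of all genes. The direction did not hold across settings: the members' median was −0.94 in the single-end run, where that of all genes was −0.09, −0.42 as deposited, −0.91 without home cage soma library 1 and −0.605 without fear conditioned soma library 1. It was 0.01 without fear conditioned dendrite library 1, −0.01 without home cage dendrite 2, −0.44 without fear conditioned dendrite 2 and −0.24 without home cage soma 2. Atp5b had a difference of −5.39 (SE 2.24, limma adjusted p = 0.716), its fear conditioned libraries lying below the home cage libraries in dendrite and above them in soma, without overlap in either; in the deposited single-end values they lay above the home cage libraries in both locations. Ndufc2 had 4.19 (SE 1.85, limma adjusted p = 0.716).

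Immunoprecipitates were set against supernatants to ask which mRNAs are over- or under-represented on tagged ribosomes. These comparisons use the same dendrite and soma immunoprecipitates as the preceding ones, rescaled with all 11 libraries. In dendrite 0 of 48 members passed in limma, against 0.0681% of 2938 genes, and 128 genes had an unadjusted p under 0.05. They included 0 members that were higher, against 0.987% of all genes, and 0 that were lower, against 3.37%. The members' median log2 difference was −0.25, against −0.10 over all genes, and 20 were positive (41.7%), against 42.9% of all genes. Without the fear conditioned dendrite immunoprecipitate 1 it was −0.28. In 3 members (6.25%) all 4 immunoprecipitates lay above both supernatants, namely Atp5b, Atp5g3 and Cox6b1, and in 7 (14.6%) below them, namely Atp5h, Cox5b, Cox6a1, Ndufa7, Ndufv3, Sdhb and Uqcrq. The shares of all genes were 4.39% and 18%. None of the 3 higher members was above both supernatants in the deposited single-end values. Atp5g3 was reversed there, with at most 3.44 FPKM in dendrite immunoprecipitates, against 13.2 and 8.76 FPKM in the supernatants, and Atp5b and Cox6b1 overlapped. Of the 7 lower members, Cox5b and Ndufa7 overlapped in that run, while Atp5h, Cox6a1, Ndufv3, Sdhb and Uqcrq stayed below both supernatants. Atp5b had 30.1 ± 27.1 scaled FPKM in dendrite immunoprecipitates (SD, n = 4) and 4.95 ± 1.57 in dendrite supernatants (SD, n = 2), a log2 difference of 1.898 (SE 1.46, limma adjusted p = 1). As deposited, 6 microglial markers summed to 0.369 to 11.5 FPKM in dendrite immunoprecipitates and to 39.8 and 14.6 FPKM in dendrite supernatants. Not every microglial value followed the sum: Aif1 had 1.94 FPKM in fear conditioned dendrite immunoprecipitate 1, against 0.657 and 0.401 FPKM in the supernatants. Oligodendrocyte markers summed to 5.52 to 131 FPKM, against 150 and 140 FPKM. The astrocyte sums overlapped, at 134 to 427 FPKM in immunoprecipitates and 348 and 274 FPKM in supernatants. The part of these markers in the members' values was not tested.

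In soma there was 1 supernatant, which is assumed to vary like the other libraries. In limma 0 of 48 members passed, as did 0% of 2938 genes, and 28 genes had an unadjusted p under 0.05. Of the members, 0 were higher at that level, against 0.136% of all genes, and 1 was lower, against 0.817%. A positive difference was found for 24 members (50%), against 57.1% of all genes. Medians were −0.03 for the members and 0.18 for all genes. All 4 soma immunoprecipitates lay below the supernatant for 14 members (29.2%), against 17.4% of all genes, and above it for 0 members, against 5.51%. The 14 included Sdhb, Ndufs1 and Ndufv3, and Sdhb was the member at an unadjusted p under 0.05. It had 0.0387, 0.895, 0 and 0 scaled FPKM in the soma immunoprecipitates and 9.10 in the soma supernatant, a log2 difference of −2.78 (SE 1.09, limma adjusted p = 1.00). Sdhb was below its supernatants in dendrite too, with 0.635, 0.0627, 0 and 0 in immunoprecipitates and 4.31 and 1.03 in supernatants. All 8 immunoprecipitates were thus under the lowest supernatant on the scaled values. As deposited, fear conditioned soma 2 at 1.89 FPKM and fear conditioned dendrite 1 at 1.41 FPKM were above the lowest supernatant, at 1.38 FPKM. The single-end run differed as well, since fear conditioned soma immunoprecipitate 2 had 12.2 FPKM and the supernatants 3.90 and 4.69 FPKM in dendrite and 4.06 FPKM in soma.

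Between the dendrite supernatants and the soma supernatant 0 of 48 members passed in limma, as did 0% of 2938 genes, and 31 genes had an unadjusted p under 0.05. Among these were 0 higher members, against 0.681% of all genes, and 0 lower members, against 0.374%. The members' median was 0.12, against −0.03 over all genes, and 28 were positive (58.3%), against 49% of all genes. Both dendrite supernatants lay above the soma supernatant for 12 members (25%) and below it for 19 (39.6%), against 33% and 38.5% of all genes. Complex IV had 8 of 10 members positive with a median of 1.04. In the authors' deposited FPKM, Cox6a1 had 22.9 and 19.0 in dendrite and 3.79 in soma, and Cox4i1 had 4.19 and 3.89 in dendrite and 1.42 in soma.

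**Figure D4:**
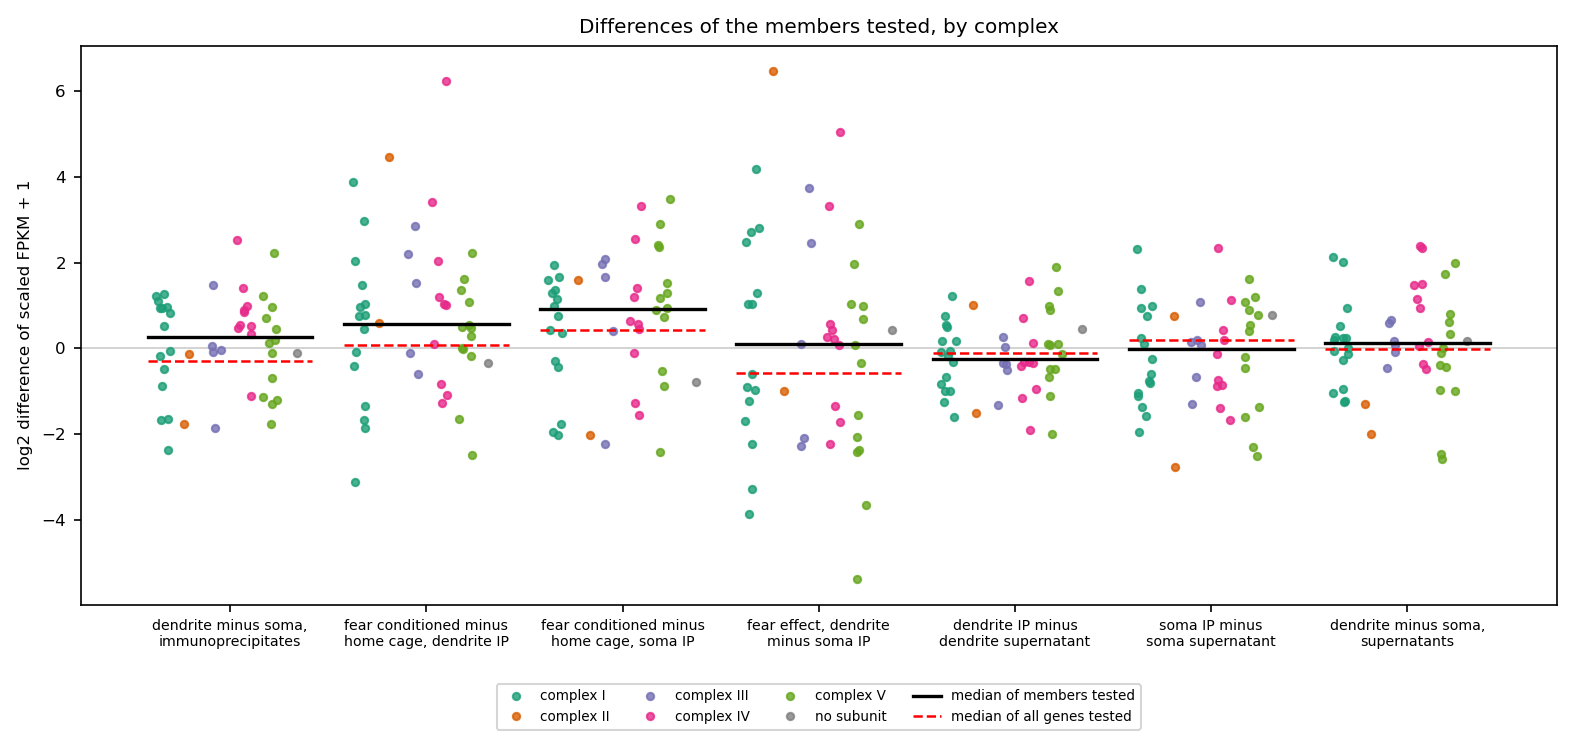
Log2 difference of scaled FPKM + 1 for each tested member, coloured by complex, in the 7 comparisons, with the median of the tested members (black line) and of all tested genes (red dashed line). Members scatter to both sides of 0 in every comparison, and the members' medians lie within 0.66 of those of all genes.

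Genes around the respiratory chain were examined from lists drawn up with earlier results known. None of them passed in any of the 7 comparisons. Of 13 mitochondrially encoded subunits only mt-Nd4, a complex I subunit, is in the tables under this name. It had 92.3 and 65.4 FPKM in fear conditioned and 13.9 and 40.9 FPKM in home cage dendrite immunoprecipitates, against 20.0 and 2.3 FPKM in fear conditioned soma and 0 in both home cage soma libraries, with a log2 difference of 3.56 between dendrite and soma. Of 26 assembly factors, which help build the complexes, 25 were in the tables and 3 were tested, each lower in dendrite than in soma without passing. Of 7 genes for the ATP synthase inhibitor, ADP/ATP and phosphate carriers and porins, 6 were tested between dendrite and soma, and 5 were higher in dendrite with a median of 0.79. Slc25a4, an ADP/ATP carrier, had 114 FPKM in fear conditioned dendrite 2 and at most 8.29 FPKM elsewhere. Of 15 genes of the citric acid cycle and pyruvate dehydrogenase, 6 were tested, with 4 higher in dendrite. Pdhb, a subunit of pyruvate dehydrogenase, had 890 FPKM in fear conditioned dendrite 2, the library with 1966 FPKM of Ndufa4, and at most 3.52 FPKM elsewhere. Of 5 electron carriers and related genes 1 was tested among immunoprecipitates, Cycs, and of 8 regulators of mitochondrial biogenesis 1, Tfb2m, a mitochondrial transcription factor, which had 88.0 FPKM in the same library.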

How the data were processed

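RNA from tagged ribosomes and supernatants was amplified (Nugen Ovation RNA-Seq System V2) and made into TruSeq libraries, per the labels' protocols; amplification means that reads are not independent molecules. CASAVA 1.9, STAR 2.1.1d and Cufflinks 2.0.2, with build mm9, are listed in the submitters' processing notes. The authors deposited FPKM values per gene in a paired-end and a single-end table, per the file headers. The sources used here do not state strand use, and 10 members share exon bases with another symbol, 4 of them on the same strand. FPKM keep no counts, so depth was estimated from the values of 1, 2 and 3 reads (tolerance 0.15 reads) in genes with 1 transcript of at least 1500 bases, and no counting interval was computed. FPKM far under the value of 1 read were listed, so detection was set at 0.01 FPKM after the values were seen.

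FPKM were scaled by the median-of-ratios method (870 genes above 0 in all 8 immunoprecipitates). Tests used log2(scaled FPKM + 1) of genes whose scaled mean reached 1, which understates changes of low genes, with limma 3.58.1 in R 4.3.3 (trended moderation, two-sided, Benjamini-Hochberg over all genes, threshold 0.05). The 8 immunoprecipitates were fitted in 4 groups, and all 11 libraries in 4 groups of location and fraction, with behaviour as a covariate. Members, lists and the rule for named genes (per complex the 4 highest members; per comparison and direction up to 3 members at an unadjusted p under 0.05 without overlap; isoform sets; members at 0; symbols that are no subunit) were chosen with earlier results of these data known. Other members named, such as Ndufb9, Ndufs1, Atp5k and Atp5e, were chosen after their values were seen. The levels of 1 member are not reported here. The fits were tested on simulated data, with 50 changed genes of higher mean level per size of change. For dendrite against soma, changes of 1, 2, 4 and 6 log2 units were called in 0%, 4%, 44% and 86% of these genes. For dendrite immunoprecipitate against supernatant the shares were 0%, 0%, 10% and 64%. Changes of 1 or 2 log2 units would thus mostly be missed. Figures and tables used Python, pandas and matplotlib.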

Additional observations from a re-analysis of the deposited data

Results flagged for a closer look

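Within the 4 dendrite and the 4 soma immunoprecipitates, a library far from the other 3 was looked for in 20 genes and 5 complex sums, 50 checks in all. The 20 genes were the 4 highest members per complex by mean level over these same libraries. Genes with 1 very high library were thereby favoured, so no chance rate is given for the flags. All values are scaled FPKM. In dendrite, Ndufc1 was 82.6 in home cage 1, Cox6a1 was 0.98 in home cage 1, below the other 3, and the complex IV sum was 1158 in fear conditioned 2, which holds the Ndufa4 value. Fear conditioned dendrite 1, the library that resembles a supernatant in the paired-end run, was the high library for Ndufs3 at 3.21, Sdhb at 0.61 and Sdhd at 0.181. Fear conditioned soma 2, which had the most members detected among soma immunoprecipitates, was the high library for Sdhb at 1.10, Sdha at 5.90, Sdhd at 0.796 and Ndufa4 at 4.21. The cause was not tested for any of them.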

How the results depend on the processing

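In the single-end run, with robust moderation, upper quartile scaling, values as deposited, other pseudocounts, an expression minimum of 5 and scaling over genes above 0.01 FPKM in every library (added after seeing the data), 0 members passed in all 7 comparisons. With no expression minimum 1 member passed in dendrite immunoprecipitates against supernatants (Ndufs6), 5 in soma (Atp5s, Ndufa11, Ndufb7, Sdhb and Uqcr) and 2 between supernatants (Atp5s and Uqcr), where 2.26%, 5.63% and 5.56% of all genes passed; Sdhb then had −2.78 and a limma adjusted p of 0.0154. The cause was not tested.

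Median differences moved by more than the spread between replicates as follows. For fear conditioning in dendrite the median was 1.52 with a pseudocount of 0.1 and 1.203 with a minimum of 5, which left 13 members. For fear conditioning in soma it was 1.93 with a pseudocount of 0.1 and 1.58 as deposited. The difference between both effects was 1.00 with a minimum of 5 and −0.94 in the single-end run. For immunoprecipitate against supernatant it was −0.81 in dendrite with a pseudocount of 0.1 and −0.60 in soma in the single-end run, and between supernatants 0.67 as deposited. Ndufc2 turned to −1.83 in the single-end run. The cause was not tested.

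Leaving out 1 library at a time gave medians of 0.01 to 0.70 for dendrite against soma (lowest without home cage dendrite 2, highest without fear conditioned soma 2), 0.31 to 0.70 for fear conditioning in dendrite, 0.00 to 1.36 in soma and −0.91 (without home cage soma 1) to 0.58 (without fear conditioned soma 2) for their difference. For immunoprecipitate against supernatant they were −0.46 (without the fear conditioned dendrite supernatant) to −0.04 (without fear conditioned soma 2) in dendrite and −0.32 to 0.18 in soma, and −0.12 to 0.42 between supernatants. Members called were 0 to 1 for fear conditioning in soma (Atp5e, above) and 0 in the others. Without the only soma supernatant, the last 2 comparisons could not be fitted.

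Deviations of same-numbered dendrite and soma libraries from their group means had an r of 0.056 for fear conditioned and −0.001 for home cage sets. The replicates of a group deviate by equal and opposite amounts, so both sets of a behaviour share the same r. Replicate libraries themselves correlated at only 0.15 to 0.52 over the members, so a low r could arise with or without pairing. Whether the numbers pair the libraries could therefore not be decided. With the replicate block 0 members passed in any comparison, and the median for dendrite against soma was 0.26. The median for soma immunoprecipitate against supernatant, which was near 0, was 0.15 with the block and 0.09 with the added scaling. The shallowest single-end run had 0.515 M reads, where 1 read in a member of median length was worth 3.00 FPKM, so absence there was not detectable at low levels.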
